A study of Mus musculus with 10 samples.

Results

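The S100 genes encode small calcium-binding proteins, and 10 of them were followed here across 10 mouse uteri: S100a1, S100a4, S100a6, S100a8, S100a9, S100a10, S100a11, S100a13, S100a14 and S100g. They were chosen by gene symbol, among the 45706 genes listed in the count table, and coordinates are given on the GRCm38 mouse genome. Uterine RNA was sequenced from 5 mutants, which were Ltf iCre/+ Arid1a f/f by genotype, and from 5 controls, which were Arid1a f/f, to ask how uterine gene expression in early pregnancy differs when the chromatin remodeling subunit ARID1A is deleted from the endometrial epithelium. All were intact adult females of a mixed 129S1/SvImJ, 129P2/OlaHsd, 129S6/SvEvTac and C57BL/6 background, untreated, and their uteri were collected at gestation day (GD) 3.5, shortly before embryo attachment. Both genotypes carried the floxed Arid1a allele on both chromosomes, and the controls carried no Cre. In mutants the Cre is expressed from the lactoferrin (Ltf) locus of the adult endometrial epithelium, and activity of this Cre in neutrophils and other myeloid cells has been described, so deletion may reach cells outside the epithelium.

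S100 proteins bind calcium through paired EF-hand motifs, and most change shape when calcium binds and then hold a partner protein. Inside cells they act on annexins, the cytoskeleton and calcium pumps or buffer free calcium, and some leave the cell and act on receptors such as RAGE and TLR4. In the uterus the best known member is S100g, also named calbindin-D9k, a cytosolic calcium buffer of the epithelium that is controlled by sex steroids, while S100a8 and S100a9 together form calprotectin, the main cytosolic protein of neutrophils.

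Between 65351817 and 72702411 counts per control uterus and between 59296537 and 67990486 per mutant uterus were assigned to genes, so that 3 counts stood at about 0.0426 CPM, the unit of counts scaled to a common library size. The whole-gene count of Arid1a, in whole tissue, was 192 to 251 CPM in controls and 165 to 208 CPM in mutants (log2 fold change -0.20, standard error 0.09, adjusted p = 0.201), and the count of Ltf, whose locus carries the Cre, was 2.22 to 11.7 CPM and 23.6 to 2831 CPM (log2 fold change 7.23, standard error 1.36, adjusted p = 0.00920). Smooth muscle, stromal and epithelial marker lists were all expressed, with summed levels of 6497 to 11407 CPM, 10271 to 14173 CPM and 803 to 1079 CPM in controls. The mutant uteri were not alike. Mutant 5 held the highest value of all 10 uteri for 15.2% of the 25146 genes tested, and mutants 1 and 5 stood apart from mutants 2, 3 and 4 in several S100 genes.

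All 10 S100 genes passed the filter on low counts (a mean of at least 1 count per uterus). One gene, S100a11, was called at an adjusted p under 0.05 by the quasi-likelihood test of edgeR, with p-values adjusted over all tested genes by the Benjamini-Hochberg method, and it was higher in mutants. This is 1 of 10 S100 genes beside 9.7% of all tested genes called in either direction (5.19% higher and 4.51% lower in mutants), so the share called was near that of all genes. In 2 S100 genes, S100a11 and S100g, the values of the genotypes did not overlap, beside 10.7% of all tested genes (5.53% with every mutant above and 5.16% with every mutant below the controls). The fitted log2 fold change was above 0 in 7 S100 genes and below 0 in 3, with a median of 0.35 beside 0.03 over all tested genes. Without mutant 5 these medians were 0.14 and 0.02. At an unadjusted p under 0.05 in the edgeR test there were 5 S100 genes, beside 26.2% of all tested genes. Among these 5 were S100a8 and S100a9, whose fold changes rested on mutant 5. DESeq2 called 2 S100 genes, S100a11 and S100g, at an adjusted p under 0.05, beside 16.3% of all tested genes, and gave no p for S100a8 and S100a9. Adjusted p-values are from the edgeR test unless named otherwise, and permutation p-values are from two-sided exact permutation tests of log2 CPM, run for each of the 10 genes without adjustment, of which 0.00794 is the smallest that 5 uteri against 5 allow.

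**Figure D1:**
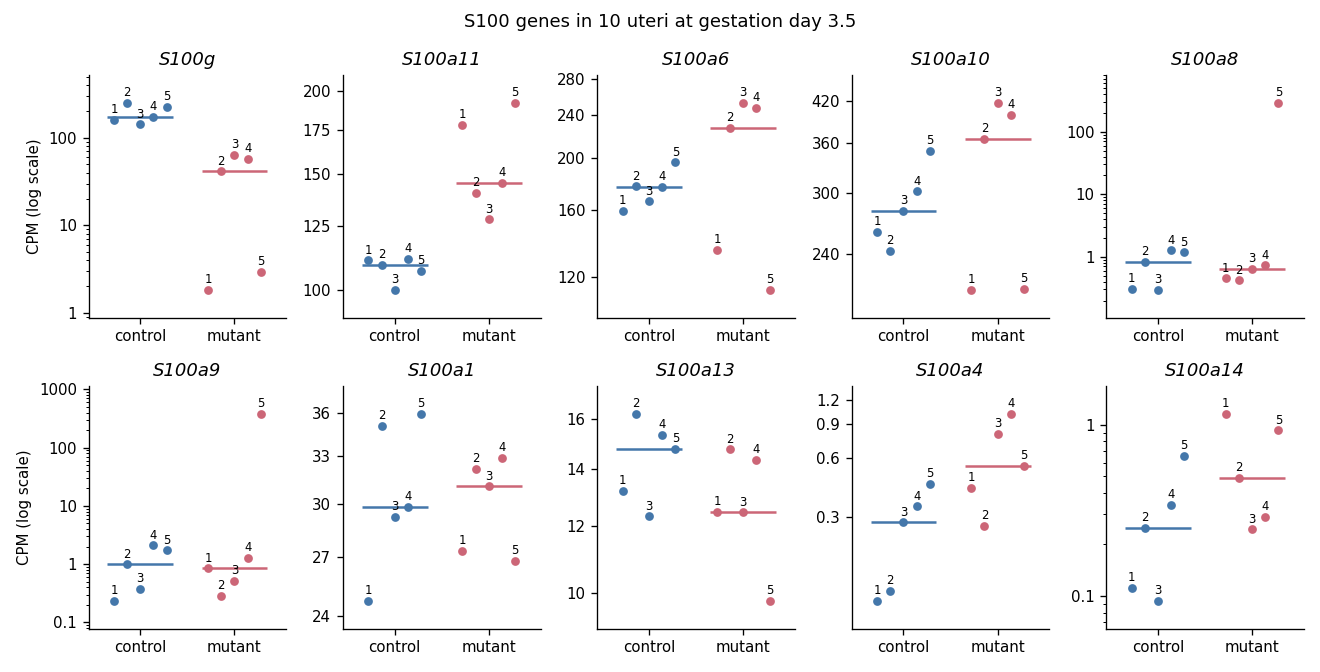
Each panel plots 1 S100 gene in CPM on a log axis whose range differs between panels, with 5 control uteri in blue and 5 mutant uteri in red, numbered by replicate, and a line at the median of each genotype. S100g lies below and S100a11 above the controls in all 5 mutants, S100a6 and S100a10 are split between mutants 1 and 5 and mutants 2, 3 and 4, and S100a8 and S100a9 are high in mutant 5 alone.

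**Figure D2:**
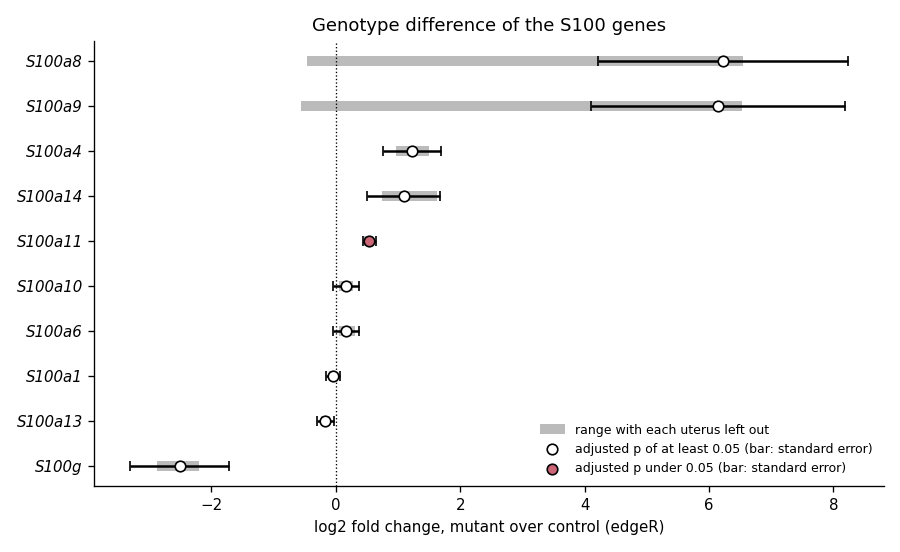
Points give the log2 fold change of each S100 gene (mutant over control, edgeR), black bars its standard error, and grey bars the range of the fold change with each of the 10 uteri left out in turn. The filled point, S100a11, is the gene with an adjusted p under 0.05, and the grey bars of S100a8 and S100a9 reach from above 6 to below 0.

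Promoter sequences are shown for the 4 genes whose values set the genotypes or a single uterus apart. They come from RefSeq (GRCm38.p6), which held a promoter for 8 of the 10 genes, and each runs 5′ to 3′ from 120 bases before to 20 bases after the annotated start, with matches to a TATA box (TATAAA), an AP-1 site (TGANTCA), a GC box (GGGCGG) or a C/EBP site (TTGCNNAA) on either strand in capitals:
S100g (chrX:162964580-162964719, minus strand): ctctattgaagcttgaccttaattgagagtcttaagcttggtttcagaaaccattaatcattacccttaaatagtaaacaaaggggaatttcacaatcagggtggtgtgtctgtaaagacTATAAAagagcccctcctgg
S100a11 (chr3:93520376-93520515, plus strand): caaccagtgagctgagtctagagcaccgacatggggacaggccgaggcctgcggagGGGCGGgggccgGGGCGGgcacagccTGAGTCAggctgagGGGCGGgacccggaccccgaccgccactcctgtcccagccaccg
S100a8 (chr3:90668951-90669090, plus strand): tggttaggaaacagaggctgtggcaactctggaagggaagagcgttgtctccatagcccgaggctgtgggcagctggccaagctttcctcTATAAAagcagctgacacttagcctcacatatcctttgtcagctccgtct
S100a9 (chr3:90695702-90695841, minus strand): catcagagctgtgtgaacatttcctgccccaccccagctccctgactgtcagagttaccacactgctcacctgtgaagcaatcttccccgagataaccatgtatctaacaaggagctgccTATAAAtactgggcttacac
The motifs were searched from 250 bases before to 50 bases after the start. TATAAA begins 30 bases before the annotated start of S100a8, 31 bases before that of S100a4 (not printed) and at the annotated start itself in S100g and S100a9, and 13.6% of all 32851 mouse promoters of that length hold it on either strand. The S100a11 promoter holds no TATAAA and differs in composition, with a GC content of 73.6% over the printed bases beside 38.6% in S100g. It holds TGAGTCA at 136 bases (outside the printed bases) and 38 bases before the start, and GGGCGG at 64, 52 and 24 bases before the start, letters held by 7.81% (TGANTCA) and 35.7% (GGGCGG) of all promoters. C/EBP letters lie outside the printed bases, 142 bases before the start of S100g and 236 before that of S100a9, and 10.8% of promoters hold them, and S100a9 also holds GGGCGG at 223 bases before its start.

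S100g showed the larger difference of the 2 S100 genes whose genotypes did not overlap. S100g (ENSMUSG00000040808, chromosome X, 162961992 to 162964599, minus strand) encodes the calcium buffer calbindin-D9k and overlaps Ctps2 on the opposite strand, without shared exon bases. It stood at 160.4, 251, 142, 174 and 225 CPM in controls 1 to 5 and at 1.83, 41.2, 64.1, 57.3 and 2.94 CPM in mutants 1 to 5. Every mutant lay below every control, and mutants 1 and 5 lay far below the other mutants. Relative to the control mean the mutants held 0.964, 21.7, 33.7, 30.1 and 1.54% of the S100g level. Mutants averaged 33.5 ± 29.6 CPM (SD, n = 5), against 190.4 ± 45.7 CPM (SD, n = 5) for controls. The fit gave a log2 fold change of -2.51 (standard error 0.80), with an adjusted p of 0.0702 that does not pass the threshold, while DESeq2 gave an adjusted p of 0.0207 and the exact permutation test p = 0.00794. Leaving out each uterus in turn gave log2 fold changes between -2.88 and -2.20, and adjusted p-values between 0.0589 and 0.136. In whole-tissue RNA, fewer cells of a type and less RNA per cell cannot be told apart, here and in what follows.

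Other genes that move calcium through epithelia gave mixed values. Of the 11 genes on the list of epithelial calcium transport, 10 were tested. Of these 1 rose and 0 fell, near the share of 9.7% called over all tested genes. Their median log2 fold change was -0.11 beside 0.03 over all tested genes. The gene that rose was Trpv6, the apical calcium entry channel. It stood at 3.99, 5.00, 3.10, 5.62 and 3.89 CPM in controls and at 101, 4.75, 7.46, 13 and 142 CPM in mutants (log2 fold change 3.63, standard error 0.88, adjusted p = 0.0263). Mutants 1 and 5, the uteri with the least S100g, had the most Trpv6, and mutant 2 lay among the controls. The adjusted p of Trpv6 was 0.0120 to 0.0709 with each uterus left out and stayed under 0.05 in 4 of 10 such fits, being lost without any 1 of the 5 controls or without mutant 1 (log2 fold change 3.27). Calb1, the larger calbindin of the same function, stood at 668, 427, 374, 548 and 489 CPM in controls and at 130.3, 615, 293, 440.4 and 170.4 CPM in mutants (log2 fold change -0.60, standard error 0.37, adjusted p = 0.336). Its 2 lowest values were again those of mutants 1 and 5, but the genotypes overlapped. Atp2b1, a plasma membrane calcium pump, was 329.6 to 362 CPM in controls and 320.2 to 459 CPM in mutants (log2 fold change 0.09, standard error 0.10, adjusted p = 0.655). Other pumps of the list, named after their values were seen, differed from it. Atp2b4 lay below every control in 4 mutants (log2 fold change -0.52, standard error 0.17, adjusted p = 0.0757, DESeq2 adjusted p = 0.0310). Atp2b2 was 47.2 to 70.3 CPM in controls and 31.3, 76.4, 84.6, 92.8 and 21.3 CPM in mutants (log2 fold change 0.12, adjusted p = 0.866).

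The summed level of the gland list was lower and that of the epithelial list higher in every mutant than in any control, and their part in the S100g values was not tested. Of the 7 gland genes, all tested, 1 fell and 0 rose, beside 9.7% of all tested genes called. Their median log2 fold change was -2.62, and the summed level was 78.3 to 124.9 CPM in controls and 13.3 to 51.4 CPM in mutants. Lif, a cytokine of the glands that was singled out after its values were seen, lay above every control in mutant 5, at 17.4 CPM beside 6.23 to 13 CPM in controls. Foxa2, a transcription factor of the glands, stood at 13.6, 13.7, 11.2, 13.8 and 10.6 CPM in controls and at 4.48, 4.55, 5.87, 8.58 and 5.15 CPM in mutants (log2 fold change -1.13, standard error 0.19, adjusted p = 0.00570). Foxa2 did not single out mutants 1 and 5. Spink1, a protease inhibitor secreted by the glands, did, at 49.1, 24.6, 12.0, 16.1 and 13.1 CPM in controls and 0.0627, 4.44, 8.67, 5.52 and 0.0434 CPM in mutants (log2 fold change -2.62, standard error 1.01, adjusted p = 0.126). Of the 9 epithelial genes, all tested, 6 rose and 0 fell, beside the same 9.7%. Their median was 0.82, and the summed level was 803 to 1079 CPM in controls and 1175 to 2209 CPM in mutants. Cdh1, the epithelial cadherin, was 204 to 274 CPM in controls and 312 to 595 CPM in mutants (log2 fold change 0.82, standard error 0.16, adjusted p = 0.0106). Krt7, a keratin of simple epithelia, was 20.5 to 23.0 CPM and 33.0 to 157 CPM (log2 fold change 1.83, standard error 0.38, adjusted p = 0.0140). Cldn3, a tight junction protein also singled out after its values were seen, had the opposite sign (log2 fold change -0.30, standard error 0.29, adjusted p = 0.558). S100g lay lower and the epithelial sum higher in every mutant than in any control, and a relation between them was not tested. Among 15284 tested genes with a mean of at least 1 CPM, those whose log2 CPM was most like that of S100g over the 10 uteri were Igfbp6, a binding protein of insulin-like growth factors (Pearson r = 0.995), Zdhhc1, a palmitoyltransferase (r = 0.994), and Kcnc4, a voltage-gated potassium channel (r = 0.992). The points share the genotype difference and the split among mutants, and within the 5 controls r was 0.845, 0.855 and 0.160.

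**Figure D3:**
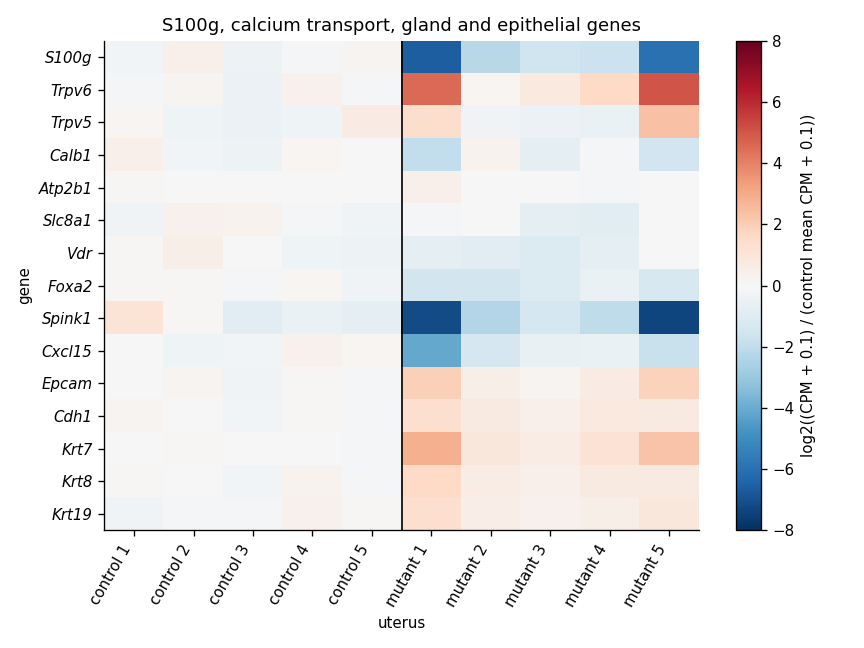
Colors give log2((CPM + 0.1) / (control mean CPM + 0.1)) for S100g (top row), calcium transport, gland and epithelial genes in each of the 10 uteri, controls left and mutants right of the line. S100g and Spink1 are deepest blue in mutants 1 and 5, where Trpv6 is deepest red, and the 5 epithelial genes drawn (Epcam, Cdh1, Krt7, Krt8 and Krt19) are red in the mutants.

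S100a11 was the S100 gene that rose. S100a11 (ENSMUSG00000027907, chromosome 3, 93520488 to 93526287, plus strand), a partner of annexin A1 at membranes, stood at 111, 109, 100.3, 112 and 107 CPM in controls and at 178, 140.4, 128, 145 and 192 CPM in mutants. Every mutant lay above every control, mutants 1 and 5 were the highest, and the controls lay close together. Mutants averaged 157 ± 27.0 CPM (SD, n = 5), against 108 ± 4.61 CPM (SD, n = 5) for controls. The fit gave a log2 fold change of 0.54 with a standard error of 0.11 (adjusted p = 0.0129, DESeq2 adjusted p = 0.000680, exact permutation p = 0.00794). With each uterus left out it was between 0.46 and 0.60, past the threshold in 10 of 10 fits (adjusted p 0.00796 to 0.0415). The summed epithelial level was highest in mutants 1 and 5 as well, at 2209 and 1612 CPM beside 1175 to 1448 CPM in the other mutants, and its part in the S100a11 values was not tested.

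S100a6 and S100a10 divided the mutants. S100a6 (ENSMUSG00000001025, chromosome 3, 90612882 to 90624181, plus strand), also called calcyclin, binds annexins and the ubiquitin ligase component CACYBP. It stood at 159, 177, 166, 177 and 196 CPM in controls and at 135, 227, 253, 248 and 113 CPM in mutants. Mutants 2, 3 and 4 lay above every control and mutants 1 and 5 below every control. The log2 fold change between genotypes was therefore small, at 0.16 (standard error 0.21, adjusted p = 0.692, exact permutation p = 0.762). S100a10 (ENSMUSG00000041959, chromosome 3, 93555080 to 93564643, plus strand), the light chain of the annexin A2 complex and a member that does not itself bind calcium, stood at 260.1, 243, 281, 301 and 350.0 CPM in controls and at 210.4, 366, 417, 399 and 211 CPM in mutants. It showed the same division, with mutants 1 and 5 below and the other 3 mutants above every control (log2 fold change 0.16, standard error 0.21, adjusted p = 0.688, exact permutation p = 0.667). This division, noticed in these 2 genes after their values were seen, was met in 104 of the tested genes, or 0.414%. It is a division of mutant uteri by their values and not a comparison between groups of the study.

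Among the intracellular partners of the S100 proteins a single gene passed the threshold. Of the 11 partners on the list, all tested, 1 rose and 0 fell, near the share of 9.7% called over all tested genes. The list had a median log2 fold change of -0.00. The partner that rose was Anxa1, the annexin that S100A11 binds. It stood at 302, 281, 290.1, 329 and 317 CPM in controls and at 438, 521, 433, 497 and 348 CPM in mutants (log2 fold change 0.56, standard error 0.11, adjusted p = 0.0118). Every mutant lay above every control, and mutant 5, the highest for S100a11, was the lowest mutant for Anxa1. Anxa2, the partner of S100A10, stood at 519, 497, 566, 537 and 516 CPM in controls and at 565, 614, 603, 600.2 and 398 CPM in mutants (log2 fold change 0.08, standard error 0.12, adjusted p = 0.743). It was lowest in mutant 5, below every control, whereas mutant 1 lay within the range of the controls and mutants 2, 3 and 4 above it. Anxa11 lay lower in every mutant than in any control, at 31.7 to 36.8 CPM in controls and 24.6 to 31.1 CPM in mutants, with an adjusted p of 0.0559 that does not pass the threshold.

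S100a8 and S100a9, the calprotectin genes, were low in 9 uteri and abundant in mutant 5. S100a8 (ENSMUSG00000056054, chromosome 3, 90668978 to 90670035, plus strand) stood at 0.308, 0.836, 0.298, 1.26 and 1.18 CPM in controls and at 0.455, 0.422, 0.638, 0.726 and 290.0 CPM in mutants, which is 19 to 89 counts in the 9 uteri and 20041 counts in mutant 5. Mutants 1 to 4 lay within the range of the controls, and mutant 5 held 229 times the highest other uterus. S100a9 (ENSMUSG00000056071, chromosome 3, 90692632 to 90695721, minus strand) stood at 0.238, 0.990, 0.376, 2.12 and 1.74 CPM in controls and at 0.847, 0.287, 0.523, 1.28 and 383 CPM in mutants, or 17 to 149 counts and 26454 counts. Mutant 5 again stood alone, at 181 times the highest other uterus. A value in mutant 5 of at least 100 times the highest other uterus was met in 14 tested genes, or 0.0557%. The log2 fold changes between genotypes of 6.23 for S100a8 (standard error 2.01, adjusted p = 0.0735, exact permutation p = 0.683) and 6.14 for S100a9 (standard error 2.04, adjusted p = 0.0813, exact permutation p = 0.659) rested on that uterus. Without mutant 5 the log2 fold change turned to -0.47 for S100a8 (adjusted p = 0.576) and to -0.57 for S100a9 (adjusted p = 0.627). A genotype difference of S100a8 or S100a9 was thus not shown in these uteri.

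Neutrophil genes were also high in mutant 5, and their part in the S100a8 and S100a9 values was not tested. Of the 16 genes on the neutrophil list, 15 were tested, 13 of these had their highest value in mutant 5, and the summed level was 20.2 to 38.0 CPM in controls, 21.6 to 36.1 CPM in mutants 1 to 4 and 324 CPM in mutant 5. Over the genotypes 2 rose and 0 fell, beside 9.7% of all tested genes called. The median log2 fold change was 1.94, and it was -0.09 without mutant 5. Ly6g, the surface marker of mouse neutrophils, stood at 0.196, 0.125, 0.0783, 0.0852 and 0.0574 CPM in controls and at 1.71, 0.372, 0.163, 0.247 and 5.32 CPM in mutants (log2 fold change 3.82, standard error 0.96, adjusted p = 0.0294). It was highest in mutant 5 and next in mutant 1, where S100a8 and S100a9 were at control levels. Mmp8, the neutrophil collagenase, was 0.0139 to 0.0852 CPM in controls, 0.110 to 0.247 CPM in mutants 1 to 4 and 17.2 CPM in mutant 5 (log2 fold change 5.99, standard error 1.66, adjusted p = 0.0440). Without mutant 5 its log2 fold change was 1.56 (adjusted p = 0.0919), and that of Ly6g 2.50 (adjusted p = 0.0457). The call of Ly6g was lost without control 2, 3, 4 or 5, and that of Mmp8 without mutant 5 or any 1 control. Cxcr2, the receptor for neutrophil-attracting chemokines, was 0.235 to 0.966 CPM in controls, at most 0.706 CPM in mutants 1 to 4 and 48.0 CPM in mutant 5. The high level in mutant 5 was not shared by every neutrophil gene. Mpo, the myeloperoxidase of primary granules, was 0.238 to 1.94 CPM in controls and 0.231 to 1.11 CPM in mutants, where mutant 5 was the lowest. Elane and Ctsg, primary granule proteases, were at 0 counts in mutant 5 and at most at 0.0836 CPM in any uterus. Prtn3, a further protease of these granules, named after its values were seen, was highest in mutant 5, at 2.05 CPM beside 0.573 to 1.13 CPM in controls.

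**Figure D4:**
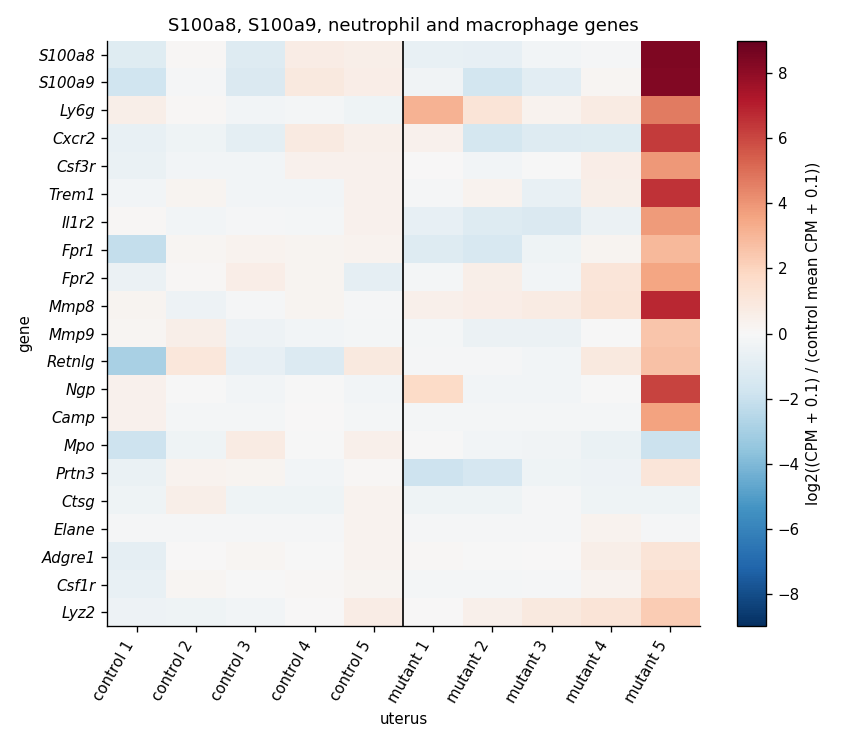
Colors give log2((CPM + 0.1) / (control mean CPM + 0.1)) for S100a8 and S100a9 (top rows), the 16 neutrophil genes and 3 macrophage genes in each of the 10 uteri, controls left and mutants right of the line. Mutant 5 is the deepest red for S100a8, S100a9 and most neutrophil genes but not for Mpo, Ctsg and Elane.

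Factors that draw or raise neutrophils and the receptors of S100 proteins were read beside the calprotectin genes. Of the 8 chemoattractant genes, all tested, 3 rose and 0 fell, beside 9.7% of all tested genes called. All 8 had their highest value in mutant 5, and the median log2 fold change was 4.13, or 1.32 without mutant 5. Il17a, a cytokine of mucosal neutrophil responses, stood at 0.0420, 0.0139, 0, 0.0426 and 0.0287 CPM in controls and at 0.141, 0.237, 0.180, 0.508 and 1.36 CPM in mutants (log2 fold change 4.15, standard error 0.81, adjusted p = 0.0106). These values are 0 to 3 counts in controls and 9 to 94 counts in mutants, so the fold change is taken against a control level near 0. The genotypes of Il17a did not overlap, unlike those of S100a8 and S100a9. Csf3, the granulocyte colony-stimulating factor, stood at 0.993, 4.17, 2.60, 2.88 and 4.06 CPM in controls and at 4.5, 7.33, 6.02, 9.41 and 14.7 CPM in mutants (log2 fold change 1.51, standard error 0.40, adjusted p = 0.0364). Its genotypes did not overlap either, and its call was lost without control 2, 3, 4 or 5 or mutant 4 or 5. Cxcl5, a chemokine of epithelial cells, was 0.128 to 0.689 CPM in controls and 3.18, 0.118, 0.213, 1.66 and 288 CPM in mutants (log2 fold change 7.54, standard error 2.12, adjusted p = 0.0459). This rise was lost without mutant 5, at a log2 fold change of 2.03 (adjusted p = 0.170), or without any 1 control. Of the 10 macrophage and monocyte genes, 0 passed the threshold, 9 were highest in mutant 5, and the summed level was 290.0 to 603 CPM in controls, 442 to 790 CPM in mutants 1 to 4 and 1469 CPM in mutant 5. The median of that list was 0.58, or 0.21 without mutant 5, and the log2 fold change was above 0 in 9 of its genes. DESeq2 gave adjusted p-values under 0.05 for Lyz2 (0.0143), Cd68 (0.0178) and Ccr2 (0.0372), named after their values were seen. That test called 16.3% of all tested genes. Without mutant 5 the edgeR log2 fold changes of Lyz2, Cd68 and Ccr2 were 0.70, 0.54 and 0.66. Ccr2 was highest in mutant 4, at 164 CPM. Of the 6 receptor genes, 0 passed the threshold and the median was 0.10. Tlr4, a receptor of calprotectin, stood at 26.9, 25.1, 32.5, 30.5 and 38.0 CPM in controls and at 30.7, 26.0, 23.2, 24.0 and 64.4 CPM in mutants (log2 fold change 0.14, standard error 0.27, adjusted p = 0.798). Its level in mutant 5 was the highest, and without that uterus the log2 fold change was -0.24. Ager, which encodes RAGE, was 3.09 to 3.73 CPM in controls and 3.13 to 4.58 CPM in mutants (log2 fold change 0.20, standard error 0.16, adjusted p = 0.458).

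The calprotectin genes followed each other closely. Over the 10 uteri the gene most like S100a8 in log2 CPM was S100a9 (Pearson r = 0.987), followed by Csf3r, the receptor of granulocyte colony-stimulating factor (r = 0.983), and Cd33, a myeloid receptor (r = 0.971). For S100a9 the order was S100a8, Csf3r (r = 0.985) and Cd14, the coreceptor of TLR4 (r = 0.962). These correlations are descriptions that lean on mutant 5. Without it, over 9 uteri, S100a8 and S100a9 still had r = 0.907, while S100a8 had r = 0.763 with Csf3r and 0.645 with Cd33. Csf3r itself stood at 4.10, 5.20, 5.06, 8.07 and 8.11 CPM in controls and at 6.23, 5.15, 6.05, 9.12 and 90.5 CPM in mutants.

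S100a1 and S100a13, whose genes lie 42 bases apart on opposite strands, differed by less than the spread between uteri. S100a1 (ENSMUSG00000044080, chromosome 3, 90511034 to 90514392, minus strand) acts on calcium release and uptake in muscle, and it stood at 24.8, 35.1, 29.3, 29.9 and 35.9 CPM in controls and at 27.3, 32.2, 31.1, 32.9 and 26.8 CPM in mutants. The mutants lay inside the range of the controls (log2 fold change -0.04, standard error 0.11, adjusted p = 0.858), and the sign turned to 0.01 without control 5. S100a13 (ENSMUSG00000042312, chromosome 3, 90514435 to 90524581, plus strand), which takes part in the release of FGF1 from cells, stood at 13.2, 16.3, 12.3, 15.4 and 14.8 CPM in controls and at 12.5, 14.8, 12.4, 14.3 and 9.79 CPM in mutants. Only mutant 5 lay below every control (log2 fold change -0.17, standard error 0.13, adjusted p = 0.468). Of the 7 myometrial genes, as background for the muscle-expressed S100a1, 0 passed the threshold, at a median log2 fold change of -0.45.

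S100a4 and S100a14 stood at low levels. S100a4 (ENSMUSG00000001020, chromosome 3, 90603771 to 90606045, plus strand), which binds nonmuscle myosin, stood at 0.112, 0.125, 0.282, 0.341 and 0.445 CPM in controls and at 0.423, 0.270, 0.801, 1.02 and 0.550 CPM in mutants, from 8 to 70 counts. Of the mutants, 3 lay above every control (log2 fold change 1.23, standard error 0.46, adjusted p = 0.118, unadjusted p = 0.0219 in edgeR's quasi-likelihood test, DESeq2 adjusted p = 0.0517). The level itself is uncertain, because 302 of the 584 exon bases of S100a4 (51.7%) also belong to a gene model on the same strand, Gm42674, and reads over both would not be assigned to either. S100a14 (ENSMUSG00000042306, chromosome 3, 90526856 to 90528837, plus strand), an epithelial member, stood at 0.112, 0.251, 0.0940, 0.341 and 0.660 CPM in controls and at 1.16, 0.490, 0.245, 0.290 and 0.926 CPM in mutants, from 6 to 74 counts. Mutants 1 and 5 lay above every control and the other 3 among them (log2 fold change 1.09, standard error 0.59, adjusted p = 0.274). Lists of the other cell types of the tissue were read beside these low members. Of 9 stromal genes 2 fell and 0 rose, beside 9.7% of all tested genes called. Their median log2 fold change was -0.32. Of 5 endothelial genes 5 fell, with a median of -0.93, and of 12 genes of stratified epithelium 7 were tested and 0 passed the threshold, with a median of -0.60.

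Other S100 genes of the mouse gave no call. Of 7 further family members, 5 were tested and 0 were called, at a median log2 fold change of -0.55. S100a16, the most abundant of them, was 55.5 to 69.0 CPM in controls and 51.5 to 82.1 CPM in mutants (log2 fold change 0.08, standard error 0.12, adjusted p = 0.729). S100a7a, related to the antimicrobial psoriasins, stood at 4.46, 2.29, 2.88, 2.53 and 3.23 CPM in controls and at 0.909, 1.30, 3.20, 2.19 and 1.06 CPM in mutants (log2 fold change -0.83, standard error 0.35, adjusted p = 0.162). Mutants 1 and 5 were the lowest uteri for S100a7a, and the genotypes overlapped.

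The S100 genes covered a wide range of levels per length, in RPKM, which is CPM divided by the kilobases of exon. The order depends on that division. By control mean in CPM, S100a10 led at 287, ahead of S100g at 190.4, S100a6 at 175 and S100a11 at 108. In controls S100g was the highest at 397 ± 95.3 RPKM (SD, n = 5), above S100a10 at 237 ± 34.2, S100a11 at 211 ± 9.01 and S100a6 at 128 ± 10.3 RPKM. S100a10 and S100a11, neighbors in this order, overlapped over the uteri. S100a1 at 44.6 ± 6.60 and S100a13 at 20.1 ± 2.25 RPKM followed, each without overlap with its neighbors. S100a9, S100a8, S100a4 and S100a14 ended the order at 2.09 ± 1.58, 1.12 ± 0.665, 0.447 ± 0.244 and 0.169 ± 0.133 RPKM, each overlapping the next. The place of S100a4 is uncertain, because 302 of the 584 exon bases used for its RPKM are shared with Gm42674. In mutants the mean of S100g was 69.7 ± 61.6 RPKM, under those of S100a11 at 307 ± 52.8, S100a10 at 264 ± 84.1 and S100a6 at 143 ± 48.3 RPKM. In mutant 5 S100a9 at 733 RPKM and S100a8 at 418 RPKM exceeded S100a11, at 376 RPKM.

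Of the 10 S100 genes, 9 lie on chromosome 3 in a cluster of 3054 kb, from S100a1 to S100a10. The first 7 of them, S100a1 to S100a9, stand within 185 kb, and a stretch of 2825 kb with genes of cornified epithelium separates S100a9 from S100a11 and S100a10. The annotation lists 121 genes in the cluster, and 37 were tested. Of these 6 rose and 1 fell, beside 9.7% of all tested genes called in either direction. Among the 7 called genes, 6 were not S100 genes. S100a11 was therefore the only one of the 13 tested S100 genes of the cluster to be called. The calls of lowest p among the others were Gm37245, Rplp0-ps1 and Sprr2g. Gm37245, a long noncoding RNA of the stretch before S100a11, stood at 0.154, 0.167, 0.0313, 0.312 and 0.172 CPM in controls and at 2.31, 0.828, 2.27, 2.69 and 3.01 CPM in mutants (log2 fold change 3.71, standard error 0.50, adjusted p = 0.00187). Its genotypes did not overlap. Sprr2g, a small proline-rich gene of the stretch, annotated as a polymorphic pseudogene in a family of close copies, was 0.279 to 0.830 CPM in controls and 1.57 to 7.31 CPM in mutants (log2 fold change 2.77, adjusted p = 0.00589). Rplp0-ps1, a processed pseudogene 241 kb from S100a11 whose reads may be shared with its parent gene, stood at 9.61, 23.3, 19.8, 0.170 and 27.3 CPM in controls and at 0.0314, 0.0845, 0.213, 0.0581 and 0.0579 CPM in mutants (log2 fold change -7.48, adjusted p = 0.00288). Control 4 was as low as the mutants for this pseudogene, and its S100a11 level of 112 CPM lay with the other controls. A link between the pseudogene and S100a11 was not tested.

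**Figure D5:**
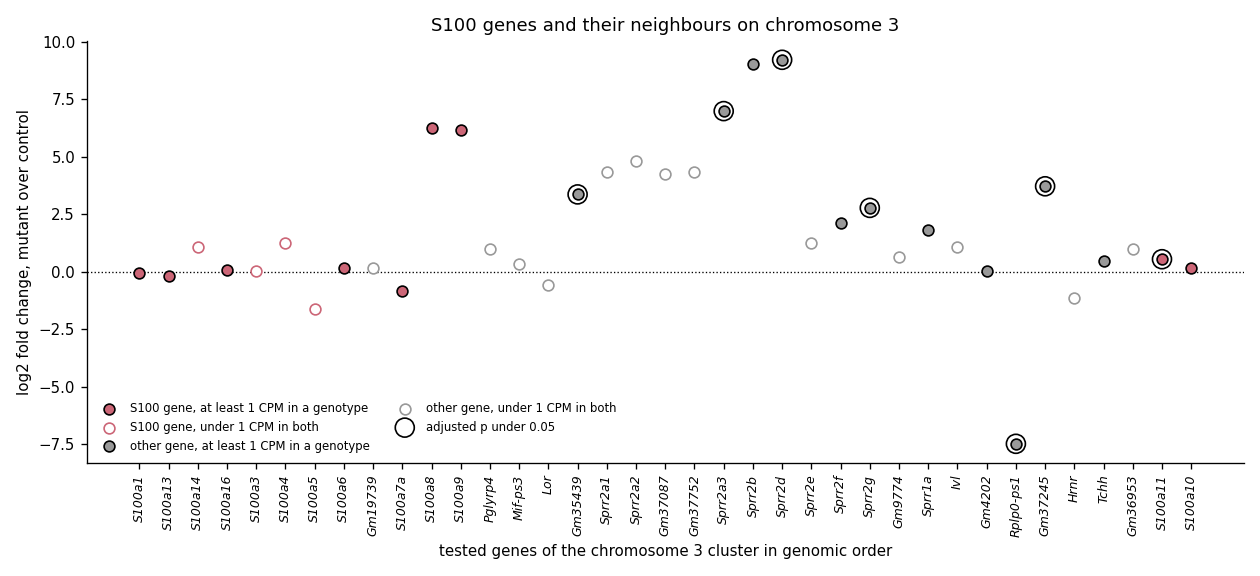
Each point is a tested gene of the chromosome 3 cluster in genomic order, with its log2 fold change (mutant over control) on the vertical axis. S100 genes are red, other genes grey, open points are under 1 CPM in both genotypes and ringed points have an adjusted p under 0.05. Among the S100 genes the ring is at S100a11, and the high points of S100a8 and S100a9 carry none.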

How the data were processed

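Whole-uterus RNA of 5 controls and 5 mutants was measured as paired-end mRNA libraries. According to the submitters' processing notes and the study's methods, reads were trimmed with cutadapt 1.18 and Trim Galore 0.6.4, checked with FastQC 0.11.9 and aligned to GRCm38 with STAR 2.7.3a, and the authors deposited unnormalized whole-number counts of reads per gene from its GeneCounts mode. The annotation release and the strand setting are not given in the sources used here. Reads over 2 gene models are not counted, and reads from opposite strands may not have been told apart. Standard errors and p-values take the single uterus as the unit of replication.

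Gene symbols and positions came from GENCODE on GRCm38 (45143 of 45706 identifiers matched). The 25146 genes that averaged 1 count or more per library were fitted in R 4.3.3 with edgeR 4.0.16 (TMM, genotype as the only factor, quasi-likelihood test, Benjamini-Hochberg over all genes, threshold 0.05). CPM used the TMM library sizes, and RPKM the exon length. DESeq2 1.42.0 was the alternative test, and single genes had exact permutation tests over 252 arrangements. The scripts were tested on simulated data. Other alternatives covered size factors, filters, a replicate block and leaving out each uterus. No 2 libraries of the same genotype were duplicates, since the lowest chi-square over 20 pairs of the same genotype was 33.3 per gene.

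The S100 genes and 13 lists (other S100 family members, receptors, intracellular partners, epithelial calcium transport, neutrophil, neutrophil chemoattractants, macrophage and monocyte, epithelium, gland, stroma, myometrium, endothelium, stratified epithelium) were chosen with earlier results of these data known. Named genes were the 10 S100 genes, from each list at most 4 past the threshold by smallest p and at most 2 further defining genes, the 3 genes most like S100a8, S100a9 and S100g, the 3 other genes of lowest p in the chromosome 3 cluster, and Arid1a and Ltf. Some further list genes were named after their values were seen. RefSeq promoters were searched for 4 motifs. The other assays of the study were not analysed here.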

Additional observations from a re-analysis of the deposited data

Results flagged for a closer look

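In groups of 5 uteri a value was picked out when its gap to the nearest other uterus, divided by the range of the group, was above Dixon's critical value of 0.71. Chance gives about 1 such value in 20 groups. Of 60 groups checked (30 genes in 2 genotypes) 7 were picked out, 5 of them in mutant 5. Among the S100 genes these were S100a8 in mutant 5 (290.0 CPM, gap over range 0.999) and S100a9 in mutant 5 (383 CPM, 0.997). The same uterus stood apart for Cxcl5 (288 CPM, 0.989), Mmp8 (17.2 CPM, 0.992) and Ltf (2831 CPM, 0.872). Control 1 stood apart for Ltf (11.7 CPM, 0.837), and mutant 1 for Krt8 (315 CPM, 0.783).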

How the results depend on the processing

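S100a11 passed the threshold under every alternative run, and S100g kept its direction under every one. The count of S100 genes called was 1 in every edgeR fit run and 2 with DESeq2. The list genes called were 21 (13 higher, 8 lower), 34 with DESeq2 (17 higher, 17 lower), 22 with a replicate block (10 higher, 12 lower) and 11 to 29 with a uterus left out, the lowest counts being 11 without control 3 (4 higher, 7 lower) and 12 without control 2 (5 higher, 7 lower). Without mutant 5 they were 21 (9 higher, 12 lower), so the larger direction depended on the fit. All genes called were 2438, 4103 with DESeq2 and 1204 to 2381 with a uterus left out (1204 without control 2, 1248 without control 3, 1414 without control 4). The direction turned for S100a8 (-0.47 without mutant 5, range to 6.55), S100a9 (-0.57 without mutant 5, range to 6.52) and S100a1 (0.0093 without control 5, range from -0.12). Replicate numbers did not pair the uteri (same-numbered deviations had r from -0.15 to 0.21, and 1 of 5 controls matched the mutant of its own number best). With a replicate block 1704 genes were called, S100a11 among them (log2 fold change 0.52, adjusted p = 0.0270, edgeR), and the log2 fold changes were -3.41 for S100g (adjusted p = 0.0791, edgeR), 1.07 for S100a8 and 1.07 for S100a9. S100a4 and S100a14 rest on 6 to 74 counts per uterus.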
